A study of Mus musculus with 24 samples.

Results

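The 10 genes described here, Arc, Homer1, Gem, Npas4, Klf4, Nptx2, Inhba, Hbegf, Pcsk1 and Dio2, are grouped as effector genes induced by synaptic activity. Npas4 and Klf4 among them are transcription factors, and Klf4 and Dio2 are not confined to neurons. The 10 genes were taken as the rows carrying those symbols in 8 deposited expression tables, which together list 30270 genes. The members were chosen with results of these data known. Gem, Arc, Dio2 and Klf4 were selected on their change between morphine and PBS in the nucleus accumbens (NAc) of Vdr-/- mice, and Npas4 on its difference between the genotypes in the NAc after morphine. The values of those 2 comparisons, and of the genotype difference of the morphine effect in the NAc that contains the first of them, are therefore given as a description. Counts of members called there are printed as background, and nothing is read from them.

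When a neuron is strongly driven, calcium entry and cAMP signalling activate the transcription factor CREB and its relatives at promoters that hold a cAMP response element. A first wave of genes, such as Fos, Npas4 and Arc, is transcribed within minutes and needs no new protein. Their products and later effectors alter the synapse itself: scaffolds and receptor trafficking at the postsynapse, secreted organisers and growth factors outside it, and enzymes that process neuropeptides or hormones. In the striatum, of which the NAc is the ventral part, psychostimulants and opioids are known to engage these genes, and the ventral tegmental area (VTA) supplies the dopamine input to the NAc.

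RNA sequencing had been carried out on micropunches of the NAc and the VTA of 12 mice, 3 in each of 4 groups, which gave 24 libraries. Wild-type C57BL/6 mice (VDR+/+) and mice of that background lacking the vitamin D receptor in the whole body (VDR-/-, written Vdr-/- here) received intraperitoneal PBS or morphine at 5 mg/kg. The labels give no age for these animals, and the Vdr-/- strain was kept on a rescue diet with added calcium and lactose, so genotype and diet cannot be told apart where wild-type mice ate another diet. The sequenced morphine mice were killed 90 min after injection. The study places the PBS mice of the sequencing at that same time, whereas its tissue methods have saline mice killed at 60 min as controls for all morphine times, so it is not settled whether time differed with the injection. Mice are named by the numbers in the labels: 1, 2 and 3 (wild-type, PBS), 1-0, 1-1 and 1-2 (wild-type, morphine), 7, 8 and 9 (Vdr-/-, PBS) and 2-0, 2-1 and 2-2 (Vdr-/-, morphine).

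Each library held between 9328726 and 30184426 reads on genes. Levels are given as CPM, the reads of a gene scaled to a common library total of 1000000, computed from whole reads recovered from the deposited values. Vdr itself had 1 to 17 reads in wild-type and 0 to 17 in Vdr-/- libraries, which does not check the genotype. The summed level of 6 medium spiny neuron markers was 1255 to 2543 CPM in NAc and 99.4 to 180 CPM in VTA libraries, and that of 6 dopamine neuron markers was 91.9 to 2325 CPM in VTA and 14.8 to 26.7 CPM in NAc libraries. Cortical excitatory neuron markers summed to 409 to 1178 CPM in NAc and 8.69 to 178 CPM in VTA libraries. Oligodendrocyte markers summed to 3533 to 5635 CPM in NAc and 5797 to 12462 CPM in VTA libraries. The part of cell content in differences between the regions was not tested. One NAc library stood apart, that of wild-type PBS mouse 2. Its expression relative to the other libraries fell with exon length (Spearman's rho across genes, -0.368, against -0.0752 to 0.218 in the other NAc libraries), and 6 of the 10 members had their lowest wild-type PBS value in it. In a punch of tissue, fewer cells of a type and less RNA per cell cannot be told apart.

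RefSeq promoter sequence (GRCm38.p6, 250 bases before to 50 after the annotated start) was used for 6 of the 10 members. These have 7 starts, since Homer1 has a pair. Promoters of Arc, Nptx2, Gem and Hbegf were not searched, so whether they hold such sites was not tested. By GENCODE M21 on GRCm38, Arc spans chr15:74669083-74672570 (minus strand), Nptx2 chr5:144545902-144557478 (plus strand) and Gem chr4:11704457-11714752 (plus strand), and the counts are of reads over their exons. CREB-type sites were searched on both strands as the full palindromic cAMP response element TGACGTCA and as its 5-letter core TGACG, which the full element contains on each strand. The AP-1 site TGANTCA, bound by Fos and Jun proteins, was searched in the same way. The full element stood in the promoters of 2 members, Dio2 and Pcsk1, and in 1.79% of the 32851 promoters of all genes. The core stood in 5 of the 6 members (Npas4, Homer1, Dio2, Klf4 and Pcsk1) and in 20.8% of all promoters. The AP-1 letters were in none of the 7 member windows and in 7.81% of all promoters. These promoters are shown because they cover the range found, from a full element to no match, with matches in capitals and all other bases in lower case, 5′ to 3′ on the gene's strand.
Dio2 (chr12:90738989-90739288, minus strand; full element starting 95 bases upstream of the start): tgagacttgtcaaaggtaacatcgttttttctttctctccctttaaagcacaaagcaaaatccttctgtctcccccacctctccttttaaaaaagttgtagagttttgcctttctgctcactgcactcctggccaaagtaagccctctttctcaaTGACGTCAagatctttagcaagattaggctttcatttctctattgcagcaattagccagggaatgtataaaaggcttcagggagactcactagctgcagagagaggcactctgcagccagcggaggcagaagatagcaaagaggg
Pcsk1 (chr13:75089607-75089906, plus strand; full element starting 78 bases upstream and a further core at 50): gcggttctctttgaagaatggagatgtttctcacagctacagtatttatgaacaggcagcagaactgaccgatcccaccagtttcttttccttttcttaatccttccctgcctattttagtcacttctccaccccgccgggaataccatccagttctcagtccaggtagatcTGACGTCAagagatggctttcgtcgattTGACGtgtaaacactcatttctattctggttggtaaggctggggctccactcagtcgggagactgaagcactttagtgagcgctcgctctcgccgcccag
Npas4 (chr19:4989922-4990221, minus strand; cores at 179 and 169 bases upstream): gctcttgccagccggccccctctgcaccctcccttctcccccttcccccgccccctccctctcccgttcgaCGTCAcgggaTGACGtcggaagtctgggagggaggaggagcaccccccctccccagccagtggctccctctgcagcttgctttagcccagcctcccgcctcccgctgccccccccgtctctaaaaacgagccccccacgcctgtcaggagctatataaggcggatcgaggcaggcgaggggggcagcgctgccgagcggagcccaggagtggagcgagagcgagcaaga
Homer1 (chr13:93303507-93303806, plus strand; cores at 56, 40 and 14 bases upstream): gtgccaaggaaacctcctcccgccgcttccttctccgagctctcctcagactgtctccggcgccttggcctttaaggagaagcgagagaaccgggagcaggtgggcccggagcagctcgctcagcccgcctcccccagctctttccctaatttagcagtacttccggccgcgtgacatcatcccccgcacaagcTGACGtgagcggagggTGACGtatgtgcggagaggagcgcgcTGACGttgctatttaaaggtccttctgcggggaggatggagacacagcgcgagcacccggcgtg
Inhba (chr13:16011601-16011900, plus strand; no match): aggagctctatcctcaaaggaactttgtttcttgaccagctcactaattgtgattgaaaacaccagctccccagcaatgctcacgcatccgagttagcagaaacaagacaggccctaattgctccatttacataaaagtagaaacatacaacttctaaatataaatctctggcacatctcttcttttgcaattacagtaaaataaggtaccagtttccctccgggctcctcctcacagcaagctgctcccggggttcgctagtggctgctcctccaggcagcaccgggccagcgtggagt
These matches are letters in a window and were not measured as bound sites. Dio2 and Pcsk1 share the full element, and their regional pattern differed, as given below.

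The members spanned a wide range of levels. On the scale of CPM per kilobase of exon, which allows genes to be compared, the median over the 12 NAc libraries ran from 31.4 for Arc and 19.0 for Homer1 through 12.6 for Dio2, 11.6 for Nptx2, 7.46 for Npas4 and 7.43 for Pcsk1 to 3.26 for Inhba, 2.86 for Hbegf, 2.03 for Klf4 and 0.893 for Gem. In the VTA the order began with Pcsk1 at 11.96, followed by Arc at 6.59 and Dio2 at 5.77, and ended again with Gem at 0.452. Neighbours in these orders mostly overlapped. In the NAc, Nptx2 ranged from 6.51 to 16.7 and Npas4 from 4.06 to 10.6 CPM per kilobase, whereas Homer1 (12.01 to 22.96) lay above every Npas4 value.

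**Figure D1:**
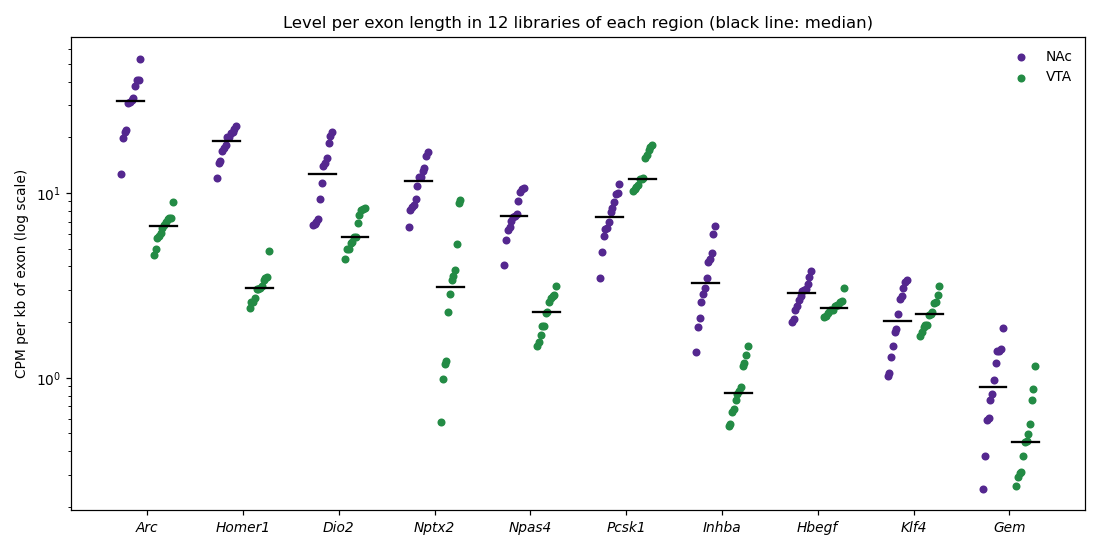
Level of each member in CPM per kilobase of exon (log scale), in the 12 NAc (purple) and 12 VTA (green) libraries, with the black line at the median. Arc, Homer1 and Npas4 sit higher in the NAc with separate ranges, Inhba sits higher there with ranges that touch, Pcsk1 sits higher in the VTA, and Klf4 and Hbegf overlap.

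The first comparison asked where these genes were expressed. In limma on log2(CPM + 0.5) with the mouse as a block, 9 of the 10 members differed between the regions at an adjusted p under 0.05, 8 higher in the NAc and 1 higher in the VTA. The regions differed widely as a whole: 71.4% of the 16561 genes tested passed, and the 9 of 10 members are to be read against that share. The median log2 difference was 1.30 over the members and -0.07 over all genes tested. This fit includes the NAc libraries that members were chosen on, so its p-values and counts are not independent of that choice.

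Among the postsynaptic genes, Homer1, a scaffold protein that links metabotropic glutamate receptors to intracellular calcium stores, differed most, at 144 to 275 CPM (median 228) in the NAc and 28.5 to 57.8 CPM (median 36.6) in the VTA. No library of one region reached the other, and in all 12 mice the NAc was higher, by 4.37-fold or more. Its log2 difference was 2.54 (SE 0.08, limma adjusted p = 1.18e-12). Arc, which drives removal of AMPA receptors from the synapse, had 38.6 to 163 CPM in the NAc and 14.1 to 27.3 in the VTA, again higher in 12 of 12 mice (log2 difference 2.16, SE 0.13, limma adjusted p = 1.54e-09). Gem, a small GTP-binding protein that holds back voltage-gated calcium channels, was the least abundant member, with overlapping ranges of 0.529 to 3.91 CPM and 0.548 to 2.43 CPM. It was higher in the NAc in 10 of 12 mice (log2 difference 0.62, SE 0.15, limma adjusted p = 0.00213).

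The 2 transcription factors differed in pattern. Npas4, a neuron-specific factor that adjusts inhibitory synapses to activity, had 16.8 to 43.7 CPM in the NAc against 6.12 to 12.9 in the VTA, with no overlap (log2 difference 1.70, SE 0.09, limma adjusted p = 3.60e-10). Klf4, a zinc-finger factor also made in endothelium and glia, had 3.13 to 10.3 CPM in the NAc and 5.12 to 9.54 in the VTA. It was higher in the NAc in 6 mice and in the VTA in 6, and did not pass the test (log2 difference -0.13, SE 0.14, limma adjusted p = 0.424).

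Of the secreted proteins, Inhba, the subunit of activin A, ranged from 8.77 to 42.2 CPM in the NAc and from 3.50 to 9.46 in the VTA, and every mouse had more in the NAc, by 2.11-fold at least (log2 difference 1.82, SE 0.11, limma adjusted p = 1.17e-09). Nptx2, a pentraxin that gathers AMPA receptors at excitatory synapses, was higher in the NAc in 11 of 12 mice, with a ratio that ran from 0.877 to 16.05 (log2 difference 1.94, SE 0.27, limma adjusted p = 1.19e-05). Hbegf, a growth factor shed from the membrane that acts on the EGF receptor, differed least among the called members (log2 difference 0.19, SE 0.08, limma adjusted p = 0.0372), was higher in the NAc in 9 mice and in the VTA in 3, and lost its call without the filter on low values or without any of 7 of the 12 mice.

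The 2 enzymes went opposite ways. Pcsk1, the prohormone convertase that cleaves neuropeptide precursors, was the member with more transcript in the VTA, at 57.6 to 102 CPM against 19.3 to 62.4 in the NAc, and every mouse showed that direction (log2 difference -0.88, SE 0.09, limma adjusted p = 2.58e-07). Dio2, the deiodinase that turns thyroxine into active thyroid hormone in astrocytes and tanycytes, was higher in the NAc in 11 of 12 mice, at 39.2 to 124 CPM against 25.7 to 48.5 (log2 difference 0.90, SE 0.17, limma adjusted p = 0.000177).

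The second comparison asked how morphine changed the members in the NAc. In Vdr-/- mice all 10 members were higher after morphine, and this is the comparison from which members had been chosen. All 10 passed the limma test at 0.05, beside 19.1% of the 15820 genes tested, and nothing is read from that count. The median log2 change was 0.99 over the members and -0.01 over all genes.

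Arc was at 60.2, 38.6 and 65.4 CPM in the 3 Vdr-/- PBS libraries and at 163, 125 and 116 CPM after morphine. Gem went from 0.529, 1.24 and 0.794 CPM to 3.91, 3.03 and 2.04 CPM. Homer1 was at 209, 174 and 179 CPM with PBS and at 275, 253 and 217 CPM with morphine. For each of these postsynaptic genes the lowest morphine library lay above the highest PBS library, and the ratio of the mean levels was 2.46 for Arc, 3.50 for Gem and 1.33 for Homer1. Homer1 counts cover the long scaffold form and the short activity-induced form together.

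Npas4 was at 16.8, 22.9 and 27.1 CPM with PBS and at 41.9, 43.7 and 37.5 CPM with morphine in Vdr-/- mice. Klf4 went from 3.97, 3.13 and 3.23 CPM to 10.1, 8.15 and 5.57 CPM. Both factors separated the groups without overlap, with ratios of 1.84 and 2.30.

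Inhba rose from 16.4, 12.01 and 13.4 CPM to 42.2, 38.1 and 30.3 CPM, and Dio2 from 42.2, 39.2 and 39.7 CPM to 124, 89.3 and 80.9 CPM. Their ratios were 2.65 and 2.43. Nptx2 (31.1, 21.8 and 21.2 against 42.3, 40.1 and 34.4 CPM), Pcsk1 (46.5, 32.9 and 36.3 against 56.0, 62.4 and 50.2 CPM) and Hbegf (10.1, 9.70 and 11.3 against 14.4, 13.4 and 14.3 CPM) had smaller ratios, of 1.58, 1.46 and 1.35, also without overlap. The members varied together between morphine animals: mouse 2-0 had the highest value of 8 members, and mouse 2-2 the lowest of 9.

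In wild-type mice the same injection gave changes that did not pass the test. None of the 10 members was called by limma, beside 0.813% of the 15749 genes tested. The count at an unadjusted p under 0.05 was 6, beside 2616 of all genes. On the recovered reads edgeR called 0 members, beside 159 genes, and DESeq2 called 2, Dio2 and Klf4, beside 514 genes. The median log2 change was 0.46 over the members and 0.01 over all genes.

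Dio2, Gem, Klf4, Inhba and Pcsk1 had log2 changes between 0.73 and 0.95 without a call, and the other members lay between -0.35 and 0.19. Dio2 was at 54.0, 40.2 and 65.4 CPM with PBS and at 109, 84.9 and 118 CPM with morphine, groups that did not overlap (log2 change 0.95, SE 0.21, limma adjusted p = 0.0909). Without PBS mouse 2 the change was 0.75 and passed (limma adjusted p = 0.0285). Gem was at 1.27, 1.72 and 1.59 CPM and at 2.52, 2.92 and 2.92 CPM (log2 change 0.82, SE 0.20, limma adjusted p = 0.116). Klf4 was at 6.78, 5.42 and 4.53 CPM and at 10.3, 9.32 and 8.49 CPM (log2 change 0.73, SE 0.17, limma adjusted p = 0.108). Inhba and Pcsk1 also separated the groups in CPM, with log2 changes of 0.78 (SE 0.30) and 0.76 (SE 0.24), limma adjusted p = 0.266 and 0.189.

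Arc was at 99.6, 67.1 and 125 CPM in wild-type PBS libraries, a range that enclosed the 94.7, 93.8 and 97.6 CPM after morphine (log2 change -0.01, SE 0.22, limma adjusted p = 0.986). Npas4 had 25.9, 31.6 and 43.5 CPM enclosing 29.2, 30.6 and 31.0 CPM (log2 change -0.15, SE 0.18, limma adjusted p = 0.694). Homer1 and Nptx2 overlapped as well, and their log2 changes of 0.15 and 0.19 turned to -0.13 and -0.07 without PBS mouse 2. Hbegf, at 18.3, 16.9 and 14.7 CPM with PBS and 15.6, 12.7 and 11.8 CPM with morphine, had a log2 change of -0.35 (SE 0.13, limma adjusted p = 0.263). Arc, Npas4 and Hbegf were thus the members whose wild-type values were level or lower while the Vdr-/- values were higher. Arc was selected on its Vdr-/- change, and Npas4 on a comparison that holds these wild-type morphine libraries. The contrast is therefore given as a description.

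**Figure D2:**
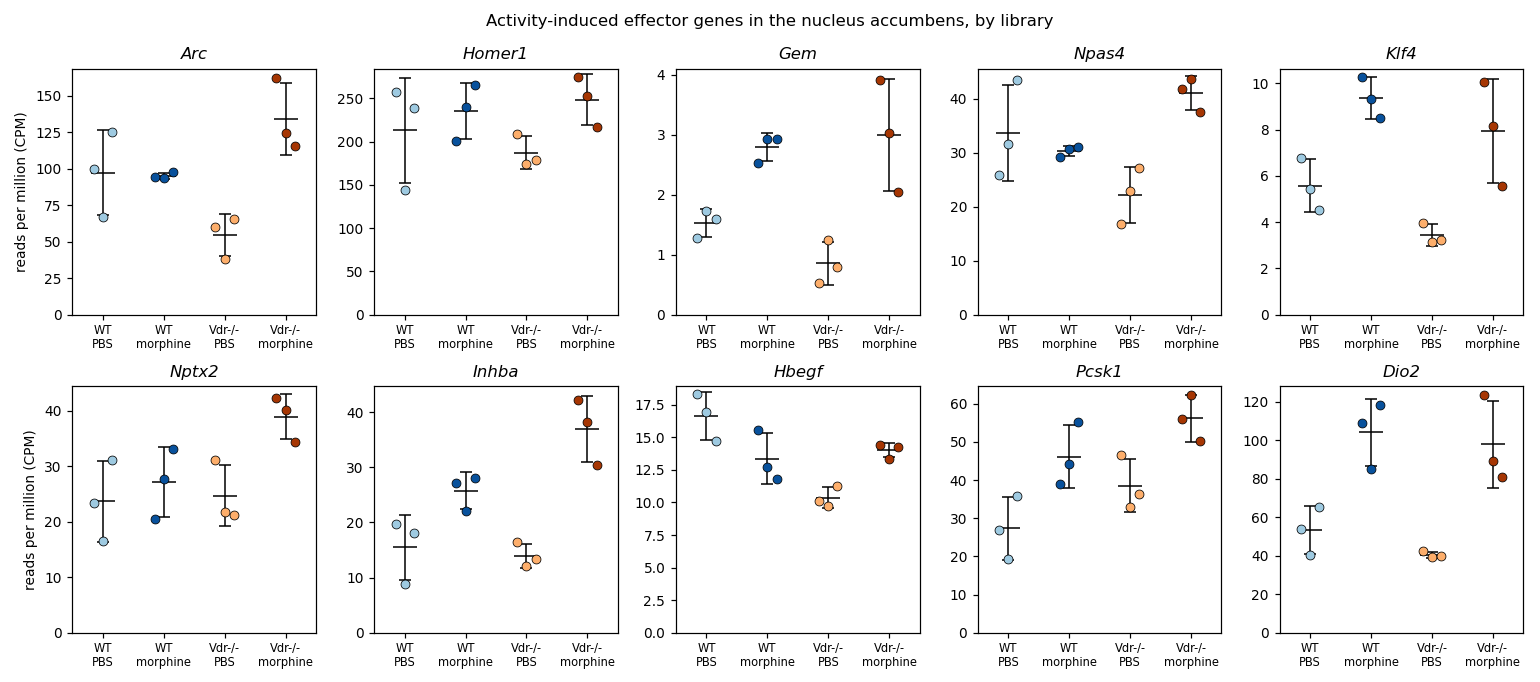
CPM of each member in the 12 NAc libraries (points), with the mean and SD of the 3 libraries of each group (black). In Vdr-/- mice, the comparison used to choose members, every morphine point lies above every PBS point. The wild-type groups of Arc, Homer1, Npas4, Nptx2 and Hbegf overlap. The share of all genes with separate groups was not counted.

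The difference between the genotypes in the log2 morphine effect in the NAc was 1.29 for Arc (SE 0.33), 1.01 for Npas4 (SE 0.26), 0.90 for Gem (SE 0.42) and 0.74 for Hbegf (SE 0.16), each in the direction of a larger value in Vdr-/- mice. The values of Inhba, Nptx2, Klf4, Dio2 and Homer1 ran from 0.58 down to 0.22, and that of Pcsk1 was -0.24. They contain the comparison the members were chosen on and are given as a description. In that fit limma called 0 of the 15788 genes tested (0%), members included, with 916 genes at an unadjusted p under 0.05, and edgeR and DESeq2 also called 0 genes.

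Cell-type markers moved with the injection in the NAc. The summed medium spiny neuron markers were 2229 to 2543 CPM in wild-type PBS and 1389 to 1769 in wild-type morphine libraries, and 1947 to 2238 against 1255 to 1474 CPM in Vdr-/- mice. In Vdr-/- mice 6 of those 6 markers passed as lower, and in wild-type mice 3 of 6. Summed microglial markers were 218 to 231 CPM with PBS and 180 to 198 with morphine in Vdr-/- mice, and endothelial markers 132 to 137 against 145 to 163 CPM. Summed astrocyte markers were 830 to 865 CPM with PBS and 997 to 1086 with morphine there, and 4 of 6 passed as higher and 1 as lower. Summed oligodendrocyte markers were 3864 to 4085 CPM with PBS and 3533 to 3730 with morphine in Vdr-/- mice, and 4 of 6 passed as lower. In wild-type mice astrocyte markers were 844 to 922 against 982 to 1151 CPM and microglial markers 233 to 259 against 179 to 201 CPM. Wild-type oligodendrocyte (4283 to 5635 against 3767 to 4598 CPM) and endothelial markers (162 to 179 against 142 to 185 CPM) overlapped. Cortical excitatory neuron markers overlapped in both genotypes. They were 409 to 933 against 431 to 786 CPM in wild-type mice and 659 to 1178 against 623 to 730 CPM in Vdr-/- mice. The correlation of relative expression with exon length also moved, from -0.368 to 0.0823 in PBS and from 0.0543 to 0.218 in morphine libraries of the NAc. The part of these shifts in the members' changes was not tested.

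Other genes of the same kind were counted from 2 further lists, 28 other activity-induced effectors and 19 activity-responsive transcription factors. These lists too were chosen with earlier results of these data known, so their counts and p-values are a description. In the NAc of Vdr-/- mice 12 of the 28 effectors passed as higher and 2 as lower, and 6 of the 19 factors as higher and 1 as lower. Over all genes tested there, 19.1% passed. The most significant effectors were Vgf, a secreted neuropeptide precursor (log2 change 0.71, limma adjusted p = 0.000185), Ptgs2, the inducible cyclooxygenase (1.34, limma adjusted p = 0.000249), and Rasgrp1, a Ras activator, which fell by 0.44 on the log2 scale (limma adjusted p = 0.000377). Fosl2, Fosb and Nr4a3 led the factors, with log2 changes of 1.19, 0.98 and 1.30 (limma adjusted p = 0.000393, 0.000688 and 0.00109). In wild-type mice, where 0.813% of all genes tested passed, 0 of the 28 effectors passed. Of the 19 factors 2 did, Atf3 at 1.72 and Fosl2 at 0.82 (limma adjusted p = 0.0377 and 0.0390).

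The third comparison asked the same of the VTA, where none of the members had been selected. The deposited morphine tables of the VTA hold 2 of the 3 PBS libraries of each genotype, so wild-type PBS mouse 3 and Vdr-/- PBS mouse 8 do not enter these fits, although their CPM are given. In wild-type mice 1 of the 10 members passed limma, Nptx2, beside 3.65% of the 16187 genes tested. The median log2 change was 0.34 over the members and -0.01 over all genes.

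Nptx2 was at 1.46, 3.02 and 3.15 CPM in the wild-type PBS libraries and at 23.3, 13.5 and 22.3 CPM after morphine. Every morphine library exceeded every PBS library more than 4-fold, and the log2 change was 3.12 (SE 0.35, limma adjusted p = 0.0116). The call was lost without a trend in the variance (limma adjusted p = 0.0636), without morphine mouse 1-2 (0.0685), without PBS mouse 1 (0.135) and without PBS mouse 2 (0.0657), with log2 changes that stayed between 2.61 and 3.63.

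Summed dopamine neuron markers separated the same libraries. They were 2325, 1877 and 1817 CPM in wild-type PBS mice 1, 2 and 3 and 159, 351 and 91.9 CPM in morphine mice 1-0, 1-1 and 1-2, and 5 of the 6 markers passed as lower. In the Vdr-/- VTA, Nptx2 was at 5.78, 2.50 and 8.55 CPM in PBS mice 7, 8 and 9, whose marker sums were 1072, 1729 and 309 CPM. It was at 9.70, 8.97 and 7.21 CPM in morphine mice 2-0, 2-1 and 2-2, whose marker sums were 551, 387 and 838 CPM. In the PBS libraries of either genotype the order of Nptx2 was the reverse of the order of the marker sums. In the morphine libraries of either genotype the highest sum (351 and 838 CPM) went with the lowest Nptx2. The reversal was not in full there, since the lowest sum (91.9 and 387 CPM) did not go with the highest Nptx2. The part of the cell content of the punch in the Nptx2 difference was not tested.

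**Figure D3:**
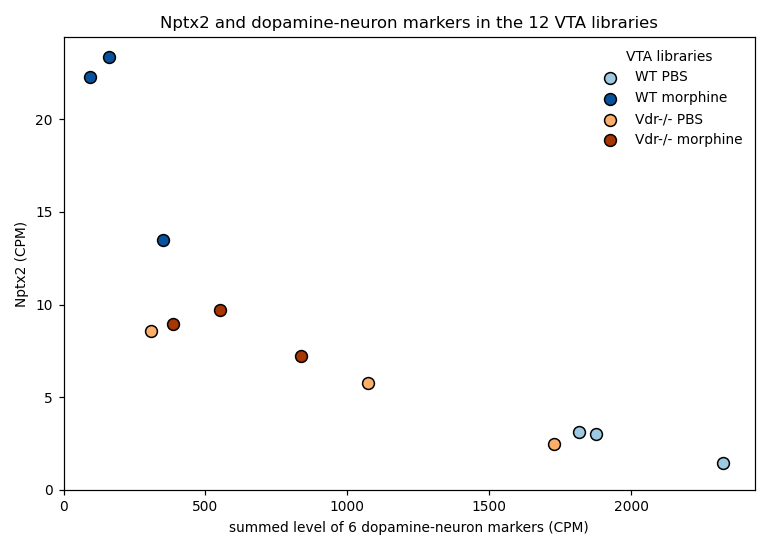
Nptx2 level (CPM) against the summed level of 6 dopamine neuron markers (CPM) in the 12 VTA libraries, 1 point per mouse, coloured by group. The 4 libraries with marker sums of 1729 to 2325 CPM hold Nptx2 at 1.46 to 3.15 CPM, and the 3 wild-type morphine libraries, with sums of 91.9 to 351 CPM, hold 13.5 to 23.3 CPM.

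The other members in the wild-type VTA had smaller log2 values. Npas4 was at 6.49, 7.07 and 7.93 CPM with PBS and 11.2, 9.44 and 10.6 CPM with morphine, without overlap (log2 change 0.58, SE 0.12, limma adjusted p = 0.0564). Pcsk1 was at 61.7, 57.6 and 60.3 CPM and at 102, 67.3 and 96.0 CPM (log2 change 0.51, SE 0.16, limma adjusted p = 0.122). Arc was at 22.5, 21.2 and 27.3 CPM with PBS and at 15.2, 17.9 and 14.1 CPM with morphine, the opposite direction (log2 change -0.51, SE 0.13, limma adjusted p = 0.0794). With all 3 PBS libraries Npas4, Pcsk1 and Arc passed beside Nptx2, Npas4 and Pcsk1 higher and Arc lower (limma adjusted p = 0.0285, 0.0442 and 0.0248), and the same 4 were called by DESeq2 and, in limma, without morphine mouse 1-1. Homer1 had a log2 change of 0.30 (SE 0.08, limma adjusted p = 0.0845), and the other 5 members ranged from -0.02 to 0.45.

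In the VTA of Vdr-/- mice 4 of the 10 members rose with morphine, beside 10% of the 16364 genes tested, and all 10 had positive log2 changes. The median was 0.47 over the members and -0.0018 over all genes. Inhba was at 3.50, 4.35 and 3.61 CPM with PBS and 7.44, 7.66 and 9.46 CPM with morphine, the clearest of the 4 (log2 change 1.18, SE 0.15, limma adjusted p = 0.00898). Pcsk1 rose from 66.5, 66.7 and 58.8 CPM to 87.0, 89.5 and 99.5 CPM (log2 change 0.55, SE 0.08, limma adjusted p = 0.0134). Both separated the groups, PBS mouse 8 included.

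Npas4 rose from 7.90, 6.12 and 9.28 CPM to 12.9, 11.6 and 11.4 CPM (log2 change 0.48, SE 0.12, limma adjusted p = 0.0456), again without overlap, and kept its call in 3 of 11 alternatives. Dio2 was at 29.0, 47.4 and 31.6 CPM with PBS and 40.2, 48.5 and 44.0 CPM with morphine (log2 change 0.54, SE 0.09, limma adjusted p = 0.0164). PBS mouse 8, which the deposited table leaves out, lay among the Dio2 morphine values, and with it the change was 0.32 and not called (limma adjusted p = 0.260). The count of 4 fell to 0 without PBS mouse 7, to 1 without PBS mouse 9 and to 2 without morphine mouse 2-2, and to 0 in limma without a trend in the variance. The loss was general: over all genes the 1639 calls fell to 0 without PBS mouse 7, to 385 without PBS mouse 9, to 329 without morphine mouse 2-2 and to 0 without the trend. Uncalled members included Homer1 (log2 change 0.53, SE 0.18, limma adjusted p = 0.108), Nptx2 (0.28, SE 0.20, limma adjusted p = 0.389, and 0.77 with all 3 PBS libraries) and Arc (0.13, SE 0.09, limma adjusted p = 0.390).

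**Figure D4:**
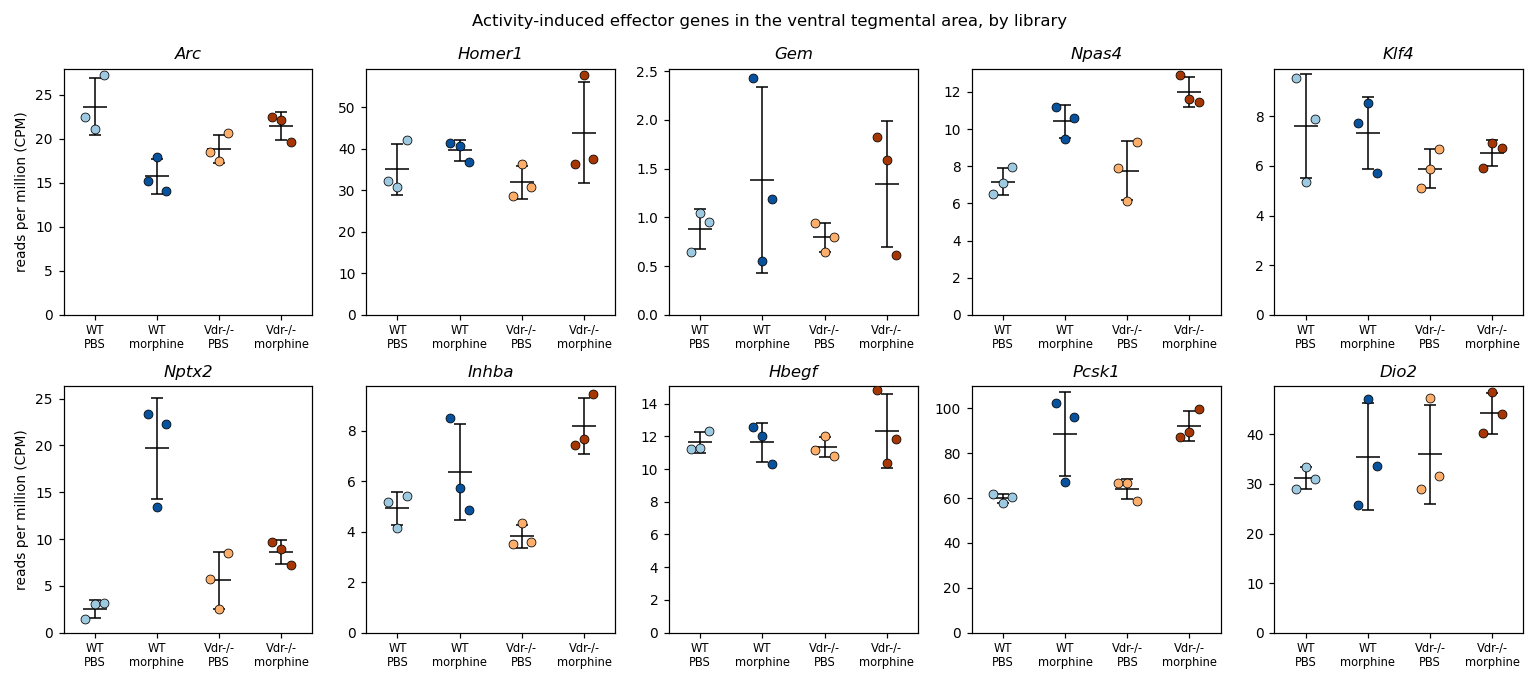
CPM of each member in the 12 VTA libraries (points), with the mean and SD of the 3 libraries of each group (black), including the 2 PBS libraries that the deposited morphine tables leave out. Nptx2 stands out in wild-type morphine libraries, and Inhba, Pcsk1 and Npas4 are higher after morphine in Vdr-/- mice without overlap.

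The summed oligodendrocyte markers in the VTA were 11238 to 12462 CPM in all PBS libraries and 5797 to 9551 CPM in all morphine libraries. Microglial markers were 181 to 258 CPM with PBS and 127 to 164 CPM with morphine. In wild-type mice astrocyte markers were 1386 to 1560 against 1005 to 1227 CPM (2 of 6 passed as lower) and endothelial markers 233 to 245 against 161 to 213 CPM (0 of 6 passed). In Vdr-/- mice the 4 cortical excitatory neuron markers tested had a median log2 change of 1.83, none past the threshold. The correlation of relative expression with exon length ran from -0.207 to -0.0333 in PBS and from 0.0228 to 0.143 in morphine libraries. The part of these differences in the VTA results was not tested. The counts of the other lists stand beside 3.65% of all genes passing in wild-type and 10% in Vdr-/- mice. Of the 28 other effectors 3 passed as higher in wild-type mice, Vgf (log2 change 0.97), the cell-cycle inhibitor Cdkn1a (1.33) and Sorcs3 (0.57), with limma adjusted p = 0.0214, 0.0283 and 0.0305. In Vdr-/- mice 5 passed as higher and 2 as lower, led by the neurotrophin Bdnf (0.77, limma adjusted p = 0.00821), Vgf (0.35, limma adjusted p = 0.00845) and Arl4d, which fell by 1.11 on the log2 scale (limma adjusted p = 0.0144). Of the activity-responsive factors 2 of 17 tested passed in wild-type mice, Fosl2 (0.99) and Fosb (1.16), with limma adjusted p = 0.0271 and 0.0330. In Vdr-/- mice 6 of 18 passed, led by Nr4a3 (2.05), Fosb (1.04) and Creb1 (0.35), with limma adjusted p = 0.0134, 0.0164 and 0.0170, all higher.

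**Figure D5:**
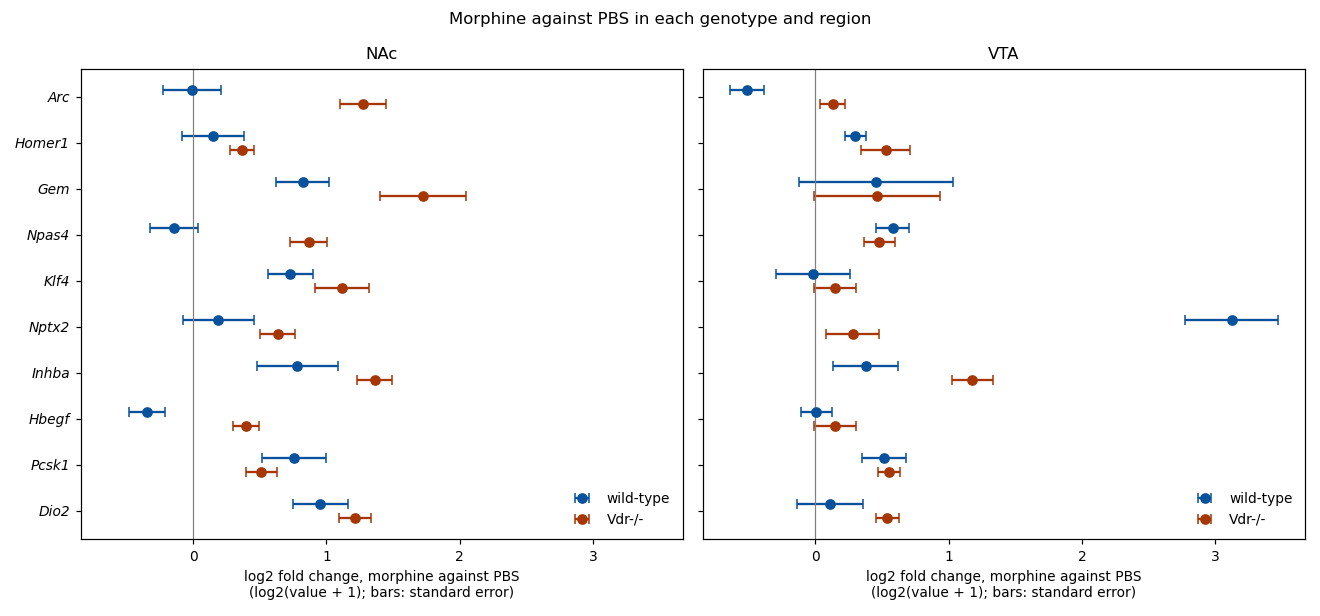
Log2 fold change between morphine and PBS on the log2(value + 1) scale of the deposited tables, with its standard error, in the NAc (left) and the VTA (right), for wild-type (blue) and Vdr-/- (orange) mice. In the NAc all 10 Vdr-/- values lie above 0, from 0.37 to 1.72, in the comparison used to choose members, and in the VTA the wild-type value of Nptx2, 3.12, stands apart.

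Whether morphine acted unequally in the genotypes was tested in the VTA on the difference of the effects. None of the 10 members passed limma, beside 0.0553% of the 16288 genes tested. The count at an unadjusted p under 0.05 was 3, beside 1983 of all genes. Of the other tools edgeR called 0 members, beside 8 genes, and DESeq2 called 1, Nptx2, beside 196 genes. The difference for Nptx2 was -2.84 (SE 0.45, limma adjusted p = 0.0679), negative where the Vdr-/- value is the smaller. It was past the threshold in limma without the filter on low values (0.0352), without wild-type morphine mouse 1-1 (0.0179) and without Vdr-/- PBS mouse 7 (0.0465). With all 3 PBS libraries per genotype the difference was -2.17 (limma adjusted p = 0.280). For Arc it was 0.64 (SE 0.16, limma adjusted p = 0.182, and 0.0313 without wild-type morphine mouse 1-1) and for Inhba 0.80 (SE 0.30, limma adjusted p = 0.336).

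Whether the wild-type morphine effect differed between the regions was tested on the difference of log2(CPM + 0.5) between the NAc and the VTA of each mouse, with all 3 PBS and 3 morphine mice, so its values are not the differences of the effects given above. Again 0 of the 10 members passed limma, beside 0.175% of the 16534 genes tested. At an unadjusted p under 0.05 there were 4 members, beside 2734 of all genes, and no other tool was run. Nptx2 had the largest value, a log2 effect lower in the NAc than in the VTA by 2.53 (difference -2.53, SE 0.42, limma adjusted p = 0.0797). Klf4 (0.74, SE 0.22, limma adjusted p = 0.177) had the larger change in the NAc and Npas4 (-0.63, SE 0.18, limma adjusted p = 0.172) in the VTA. The wild-type NAc morphine libraries also enter the comparison Npas4 was selected on. In the other lists Ptgs2 passed, with a change larger in the NAc (1.48, limma adjusted p = 0.0483).

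The genotypes were last compared at a fixed injection. After PBS in the NAc 0 of the 10 members passed limma, beside 0.069% of the 15933 genes tested. The count at an unadjusted p under 0.05 was 5, all lower in Vdr-/- mice, beside 1424 of all genes. Of the other tools edgeR called 0 members, beside 12 genes, and DESeq2 called 1, Hbegf, beside 64 genes. The median log2 difference was -0.46 over the members and 0.01 over all genes. These Vdr-/- PBS libraries are also the controls of the comparison the members were chosen on.

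Hbegf was at 18.3, 16.9 and 14.7 CPM in wild-type and 10.1, 9.70 and 11.3 CPM in Vdr-/- PBS libraries, groups that did not overlap (log2 difference -0.66, SE 0.11, limma adjusted p = 0.287). Arc was at 99.6, 67.1 and 125 against 60.2, 38.6 and 65.4 CPM (log2 difference -0.80, SE 0.28, limma adjusted p = 0.507), also apart. Gem (-0.84, SE 0.33), Klf4 (-0.65, SE 0.19) and Npas4 (-0.57, SE 0.23) had differences of like size, with limma adjusted p = 0.529, 0.441 and 0.543. Gem and Klf4 separated the genotypes in CPM and Npas4 overlapped. Endothelial markers, which summed to 162 to 179 CPM in wild-type and 132 to 137 CPM in Vdr-/- PBS libraries, were apart as well, as were oligodendrocyte markers (4283 to 5635 against 3864 to 4085 CPM) and microglial markers (233 to 259 against 218 to 231 CPM). Their part in these differences was not tested.

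After morphine in the NAc 1 of the 10 members was called, Npas4, beside 0.192% of the 15638 genes tested. Npas4 had been selected on this comparison, so nothing is read from that count. It is described without a test: 29.2, 30.6 and 31.0 CPM in wild-type and 41.9, 43.7 and 37.5 CPM in Vdr-/- libraries, a ratio of the means of 1.35. The count fell to 0 when any of 5 of the 6 libraries was left out, all but that of Vdr-/- mouse 2-2, and to 0 in limma without a trend in the variance. Over all genes the 30 calls became 14 to 47 with a library left out and 10 without the trend. Arc was at 94.7, 93.8 and 97.6 against 163, 125 and 116 CPM, a ratio of 1.41. Inhba was at 27.1, 22.0 and 28.1 against 42.2, 38.1 and 30.3 CPM, and Nptx2 at 20.5, 27.8 and 33.1 against 42.3, 40.1 and 34.4 CPM, with ratios of 1.43 and 1.44. All 4 were higher in each Vdr-/- library than in any wild-type library, and the Vdr-/- morphine libraries are shared with the comparison used to choose members. How many of all genes separated these groups was not counted, so nothing is read from the 4.

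In the VTA limma called none of the 10 members between the genotypes. After PBS, beside 0.39% of the 16425 genes tested, limma, edgeR and DESeq2 each called 0 members, and 2 had an unadjusted p under 0.05. Over all genes edgeR called 69 and DESeq2 274, and 2338 had an unadjusted p under 0.05. Arc was at 22.5, 21.2 and 27.3 CPM in wild-type and at 18.5, 17.5 and 20.6 CPM in Vdr-/- libraries, without overlap, with a log2 difference of -0.34 (SE 0.10, limma adjusted p = 0.218). Nptx2 had a log2 difference of 1.02 with overlapping values (SE 0.46, limma adjusted p = 0.366), and Inhba one of -0.38 (SE 0.16, limma adjusted p = 0.327). Summed dopamine neuron markers were 1817 to 2325 CPM in wild-type and 309 to 1729 CPM in Vdr-/- PBS libraries, with 0 of 6 called. Endothelial markers were 233 to 245 against 198 to 217 CPM (0 of 6 called), and the other marker sums overlapped. The part of these markers in the differences was not tested. From the other lists Cdkn1a passed, higher in Vdr-/- mice by 1.62 on the log2 scale (limma adjusted p = 0.0176).

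After morphine in the VTA, beside 0.0624% of the 16029 genes tested, limma and edgeR called 0 members. DESeq2 called 1, Nptx2, and 2 members were at an unadjusted p under 0.05. Over all genes edgeR called 10 and DESeq2 94, and 1406 had an unadjusted p under 0.05. Nptx2 was at 23.3, 13.5 and 22.3 CPM in wild-type and 9.70, 8.97 and 7.21 CPM in Vdr-/- libraries, without overlap (log2 difference -1.16, SE 0.21, limma adjusted p = 0.215). It passed in limma without wild-type mouse 1-1 (0.0204). The dopamine marker sums of these libraries were 91.9 to 351 and 387 to 838 CPM. Arc was at 15.2, 17.9 and 14.1 against 22.5, 22.2 and 19.7 CPM, also apart, with Vdr-/- higher (log2 difference 0.45, SE 0.11, limma adjusted p = 0.416).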

How the data were processed

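RNA from NAc and VTA micropunches of 12 mice was sequenced (24 libraries). Per the study's methods and the submitters' notes, reads were filtered with Trimmomatic 0.36, aligned with STAR 2.4.2a to GRCm38 and counted per gene of the GENCODE mouse annotation, whose release is not given in the sources used here. CASAVA 1.8 is also named in those notes, without its role. The authors deposited the signal as counts divided by DESeq2 size factors, in 8 tables, each for a pair of groups. The strand column counted is not given in the sources used here. Whole reads were recovered from the step of each column: 100% of values were whole within 0.01, and 22 libraries present in 2 tables had 0 genes with other reads. Replicate libraries differed beyond sampling noise (chi-square per degree of freedom 3.99 to 34.5). Nothing in the labels states how libraries were pooled for sequencing.

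Groups came from the labels. Within a table, log2(value + 1) of genes with a mean of at least 10 was tested with limma 3.58.1 (lmFit, eBayes with a trend, R 4.3.3), two-sided, with Benjamini-Hochberg adjustment over all genes tested and a threshold of 0.05. All 10 members passed the filter in every comparison. The regions were compared on log2(CPM + 0.5) for genes with a mean CPM of at least 0.5, with the mouse as a block, since the labels give both punches of an animal one number. The genotype differences of the morphine effect used the pair of deposited tables together, and the region difference used the CPM of all wild-type libraries, as a difference within each mouse. Alternatives were edgeR 4.0.16 (quasi-likelihood) and DESeq2 1.42.0 on recovered reads, a pseudocount of 0.25, no filter, no trend, all PBS libraries, a block and leaving out each library. Scripts were tested on simulated data. Gene models and exon lengths came from GENCODE M21, which matched 30204 of 30270 genes.

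The members and lists were chosen with earlier results of these data known. By rule all members are named, ordered by role, and from the other lists up to 3 called genes with the smallest adjusted p. P-values measure the spread between mice. Where groups are said not to overlap, the share of all genes that did so was not counted. CPM intervals are not given, and depth was 9328726 to 30184426 reads per library.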

Additional observations from a re-analysis of the deposited data

Results flagged for a closer look

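Arc was the member whose genotype difference had opposite directions after the 2 injections, without overlap, in both regions. In the NAc it was lower in Vdr-/- mice after PBS (38.6 to 65.4 against 67.1 to 125 CPM) and higher after morphine (116 to 163 against 93.8 to 97.6 CPM), a difference of the morphine effect of 1.29 on the log2 scale. That value contains the comparison the members were chosen on and is given as a description; limma called 0 of the 15788 genes tested there, Arc included. In the VTA it was 17.5 to 20.6 against 21.2 to 27.3 CPM after PBS and 19.7 to 22.5 against 14.1 to 17.9 CPM after morphine, a difference of 0.64 (SE 0.16) that did not pass limma (adjusted p = 0.182). The wild-type PBS and morphine VTA libraries also differed in dopamine neuron marker sums, at 1817 to 2325 and 91.9 to 351 CPM. The part of that in the Arc values was not tested.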

How the results depend on the processing

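The fold changes of members were recomputed 828 times for 67 reported values. Of these, 752 kept their direction and side of the threshold, 44 lost a call, 25 gained one and 7 turned direction. All 7 were small NAc wild-type changes, with 1 library left out: Arc (0.00062 without morphine mouse 1-0, 0.0065 without 1-1, 0.038 without PBS mouse 1, 0.21 without PBS mouse 3), Npas4 (0.068 without PBS mouse 3), and Homer1 and Nptx2 (-0.13 and -0.067 without PBS mouse 2). Over these left-out fits the values ran from -0.28 to 0.21 (Arc), -0.31 to 0.068 (Npas4), -0.13 to 0.31 (Homer1) and -0.067 to 0.42 (Nptx2). The cause was not tested.

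With DESeq2 the count of members called was 2 for morphine in the wild-type NAc, 4 in the wild-type VTA, 1 for genotype in the NAc after PBS, 4 in the NAc after morphine, 1 in the VTA after morphine, and 1 for the genotype difference of the morphine effect in the VTA. Over all genes DESeq2 called 514, 1423, 64, 52, 94 and 196, in the same order. Without a variance trend the counts were 0 for morphine in the wild-type VTA, 0 in the Vdr-/- VTA and 0 for genotype in the NAc after morphine. Over all genes the calls there were 56, 0 and 10. Without a filter the members called were 2 for genotype in the NAc after morphine and 1 for the VTA difference of effects, beside 42 and 27 genes. With all 3 PBS libraries the wild-type VTA count was 4. Leaving out 1 library gave 0 to 1 (morphine, wild-type NAc), 0 to 4 (wild-type VTA), 0 to 3 (Vdr-/- VTA), 0 to 1 (genotype after morphine, NAc and VTA) and 0 to 2 (VTA difference of effects). Genes called in all moved as widely: in the wild-type NAc from 128 to 514 with DESeq2, 627 when PBS mouse 2 was dropped and 0 when morphine mouse 1-1 or 1-2 was; in the wild-type VTA from 591 to 2001 with all PBS libraries and 0 without PBS mouse 1 or 2; in the Vdr-/- VTA from 1639 to 0 without PBS mouse 7. For Nptx2 in the Vdr-/- VTA the log2 change ran from 0.0063 to 0.55 with 1 library left out. In the Vdr-/- NAc, 10 members became 7 without a variance trend, and the calls over all genes went from 3018 to 1237. Members were chosen on that comparison and on genotype in the NAc after morphine, so nothing is read from the counts of either.

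Morphine mice of the genotypes share a last digit in their numbers. Same-digit libraries did not deviate together (r across genes -0.074 to -0.0078 in the NAc, -0.25 to -0.14 in the VTA). Deviations were taken from the mean of each group, so these r values depend on each other. They cannot decide whether the digit pairs the mice. With the digit as a replicate block, 0 members were called for genotype in the NAc after morphine and 0 in the VTA. For NAc against VTA, 9 members were called with and without the mouse as a block. Depth limits Gem most, at 0.529 CPM in its lowest library.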
